A study of Mus musculus with 48 samples.

Results

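Livers of mice that lack both copies of Nr1h3, the gene of liver X receptor-α (LXRα), were compared with livers of mice that lack 1 copy. The comparison holds 16 of the 48 livers sequenced, chosen by genotype label alone: 8 livers of KO:HOM mice (LXRα-/-) and 8 livers of KO:HET mice (LXRα+/-). It addresses which transcripts differ once the remaining copy is gone as well. The 8 KO:WT livers (LXRα+/+) of the same knockout study share the statistical model and are given as a reference level, and the other 24 livers come from a separate knock-in line that was not compared here. All mice of the knockout study are labelled C57Bl/6J, the line having begun on a mixed Sv129 and C57Bl/6 background and been crossed back to C57BL/6 for more than 10 generations. The 3 genotypes were bred from heterozygous parents and fed a western diet, rich in fat and cholesterol, for 8 weeks from about 8 weeks of age, so no liver here was from a mouse on ordinary chow. The deletion is carried by every cell of the animal, and whole liver was sequenced. The labels give neither the sex of each animal nor the cohort it belonged to, and Y-linked transcripts were present in all 24 livers of the study.

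LXRα is a nuclear receptor that binds oxysterols and pairs with a retinoid X receptor on DNA. In hepatocytes it is known for switching on genes of sterol export into bile and of fatty acid synthesis, the latter largely through Srebf1. In macrophages it drives cholesterol efflux, and in Kupffer cells, the resident macrophages of the liver, it maintains identity genes such as Cd5l. It is also known to hold down inflammatory transcription in macrophages.

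Polyadenylated RNA was sequenced in stranded libraries, and the deposited values are reads per gene. Reads assigned to genes ranged from 5332897 to 16478887 in KO:HET livers and from 5376226 to 16961379 in KO:HOM livers. The lowest value of each group came from 1 shallow library, animal 3 (KO:HET) and animal 17 (KO:HOM), and the other libraries held at least 15670785 and 15231842 reads. Several counts below are also given without both. Levels are CPM values, read counts scaled to the reads on genes of the library, after TMM scaling, a correction for differences in RNA composition. A gene is called when edgeR's quasi-likelihood test gives a Benjamini-Hochberg adjusted p under 0.05 over the 14296 genes tested. Values after ± are standard deviations over 8 livers, and SE is the standard error of a log2 fold change.

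Nr1h3 itself (ENSMUSG00000002108, chromosome 2, 91014394 to 91033417 on the minus strand, GRCm39) followed the genotype labels. Its level ran from 76.4 to 102 CPM with a median of 85.7 in KO:WT livers, from 45.7 to 62.5 with a median of 55.6 in KO:HET livers, and from 23.4 to 29.4 with a median of 24.9 in KO:HOM livers. The 3 groups did not overlap. From KO:HET to KO:HOM it fell by 1.12 on the log2 scale (SE 0.07, edgeR adjusted p = 9.39e-11), and from KO:WT to KO:HET it fell by 0.66 (SE 0.07, adjusted p = 5.3e-06). Reads thus remained on the gene in KO:HOM livers, at a mean of 25.6 ± 1.99 CPM against 55.8 ± 5.56 in KO:HET livers. Whether they come from outside the deleted part was not tested. Another gene model on the same strand, Gm13783, overlaps Nr1h3 in the annotation.

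Loss of the second copy went with more genes higher than lower. Of the genes tested, 1284 were called between KO:HOM and KO:HET livers, 8.98% of all, with 916 higher in KO:HOM (6.41%) and 368 lower (2.57%). The median log2 fold change over all genes tested was −0.007, which lies close to 0. Among the called genes, 532 rose by at least 1 on the log2 scale and 51 fell by at least that much. For 79 called genes (0.553% of those tested) the 8 KO:HOM livers did not overlap the 8 KO:HET livers at all, 51 of them higher and 28 lower. Without both shallow libraries 926 genes were called, 739 higher and 187 lower, and 892 of these were among the 1284, all in the same direction.

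**Figure D1:**
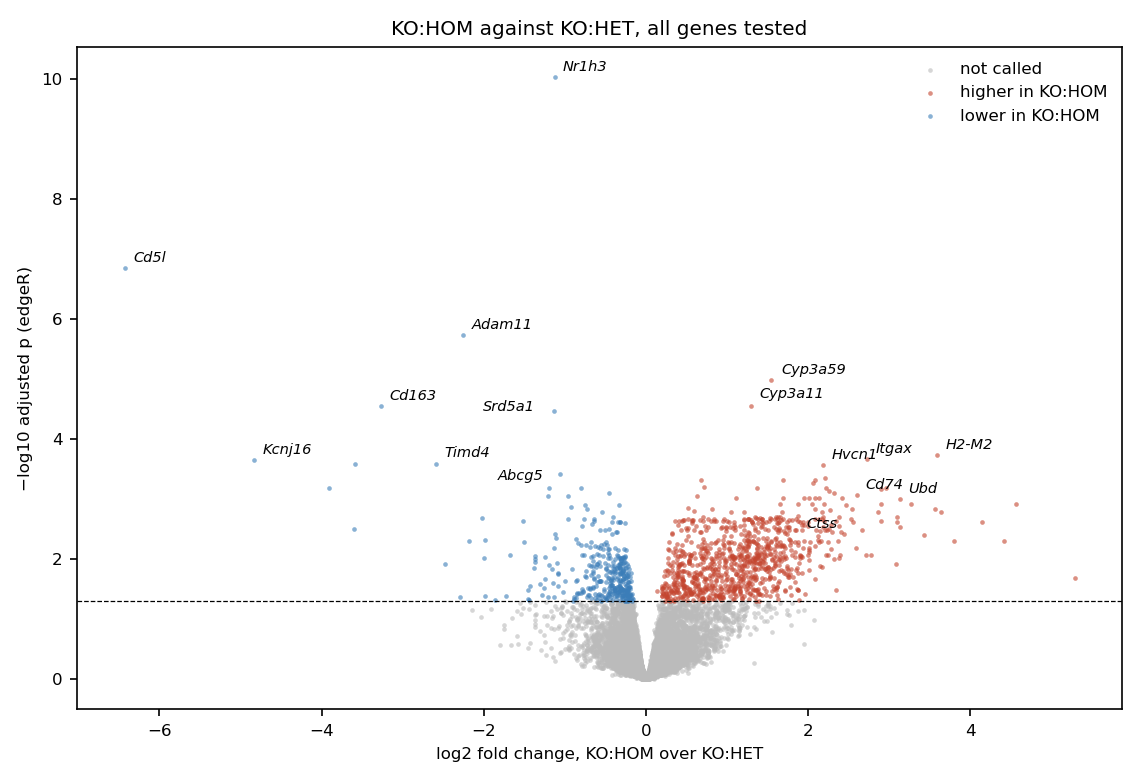
Each point is 1 of the 14296 genes tested, with the log2 fold change of KO:HOM over KO:HET on the horizontal axis and −log10 of the edgeR adjusted p on the vertical axis; the dashed line marks an adjusted p of 0.05. Points above the line on the right (916) outnumber those on the left (368), and Cd5l lies farthest to the left among the labelled genes.

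Few genes passed the test between KO:HET and KO:WT livers. In that comparison edgeR called 3 genes, 0.021% of those tested, and they were Nr1h3, Cyp3a11 and Apol7e. Apol7e, at a mean of 0.104 CPM in KO:WT and 0.551 in KO:HET livers, was not called without both shallow libraries, with unstranded counts, without the filter on low counts or with all 48 livers in the fit. At an unadjusted p under 0.05 the count was 819, and DESeq2, another count model, called 11. On linear CPM, tested with limma, Nr1h3 alone was called. Between KO:HOM and KO:WT 2410 genes were called (16.9%). These comparisons share livers with the KO:HOM against KO:HET comparison, so their values are set side by side below and are not independent of it.

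The smallest p-values among rises were those of a pair of cytochrome P450 genes of the Cyp3a cluster on chromosome 5. Cyp3a11 (ENSMUSG00000056035, 145791236 to 145816867, GRCm39) encodes a major drug- and steroid-oxidising enzyme. It ran from 1097 to 2870 CPM (median 2190) in KO:WT livers, from 3353 to 6091 (median 4226) in KO:HET livers and from 9233 to 12310 (median 11077) in KO:HOM livers. No KO:HOM liver overlapped a KO:HET liver, and no KO:HET liver overlapped a KO:WT liver. The rise from KO:HET to KO:HOM was 2.46-fold (log2 fold change 1.30, SE 0.16, edgeR adjusted p = 2.84e-05), and that from KO:WT to KO:HET was 1.06 on the log2 scale (SE 0.16, adjusted p = 0.00261). The call from KO:WT to KO:HET was lost on linear CPM, tested with limma. By edgeR with the filter on low counts Cyp3a11 and Nr1h3 were the 2 genes called in both steps.

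Cyp3a59 (ENSMUSG00000061292, 146016067 to 146050097 on the same chromosome) belongs to the same enzyme family. It ran from 50.7 to 125 CPM (median 61.8) in KO:HET livers and from 170 to 230 (median 211) in KO:HOM livers, without overlap. It rose by 1.54 on the log2 scale (SE 0.17, edgeR adjusted p = 1.05e-05), and its step from KO:WT to KO:HET was 0.92 (SE 0.17, adjusted p = 0.0549), which DESeq2, and edgeR without the filter on low counts, did call. Members of such a family share sequence, and the effect of this on their counts was not tested. Over all 74 cytochrome P450 genes tested, a family looked at after its values were seen, 7 were higher and 5 lower in KO:HOM livers and the median log2 fold change was −0.07.

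The promoters of the 2 genes are shown because they rose together. Each sequence is 300 bases, from 250 before to 50 after the RefSeq start of transcription (GRCm38.p6, a different build from the gene positions above), printed 5′ to 3′ on the strand of the gene. Capitals mark AGGTCA or its reverse complement, the core motif that many nuclear receptors recognise. The Cyp3a11 window lies at chr5:145879805-145880104 on the minus strand and the Cyp3a59 window at chr5:146079008-146079307 on the plus strand.
Cyp3a11: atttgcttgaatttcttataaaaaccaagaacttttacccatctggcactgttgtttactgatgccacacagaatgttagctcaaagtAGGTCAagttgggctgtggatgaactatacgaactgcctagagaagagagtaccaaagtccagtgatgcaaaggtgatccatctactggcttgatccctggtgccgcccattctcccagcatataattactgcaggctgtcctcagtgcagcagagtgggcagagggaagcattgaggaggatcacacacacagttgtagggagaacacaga
Cyp3a59: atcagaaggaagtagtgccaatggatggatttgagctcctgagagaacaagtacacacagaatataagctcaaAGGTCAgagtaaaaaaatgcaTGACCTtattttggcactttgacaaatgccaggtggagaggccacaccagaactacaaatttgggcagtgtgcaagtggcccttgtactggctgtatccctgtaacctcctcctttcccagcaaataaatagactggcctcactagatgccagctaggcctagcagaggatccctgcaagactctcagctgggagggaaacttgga
AGGTCA occurs on either strand in 16.3% of the 32851 windows of this length, once in the Cyp3a11 window and 2 times in that of Cyp3a59. A match of these letters is a description of the sequence and not a measured binding site. The direct repeat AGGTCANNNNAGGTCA, the spacing preferred by LXR with its partner, occurs in 5 windows and in neither of these.

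Among genes of sterol export, Abcg5 and Abcg8, the paired transporters that pump cholesterol into bile, fell. Abcg5 (ENSMUSG00000040505, chromosome 17, 84964851 to 84990494, GRCm39) ran from 194 to 338 CPM (median 317) in KO:HET livers and from 99.0 to 193 (median 157) in KO:HOM livers. The groups touched without overlapping, because 1 KO:HET liver, animal 15, lay at 194 and the next at 308. The fall was 2.08-fold (log2 fold change −1.05, SE 0.15, edgeR adjusted p = 0.000381). In KO:WT livers Abcg5 ran from 202 to 415 CPM, and its step from KO:WT to KO:HET was 0.02 (SE 0.15, adjusted p = 0.99). Abcg8 (ENSMUSG00000024254, 84983730 to 85007765) ran from 188 to 325 CPM in KO:HET livers and from 95.1 to 186 in KO:HOM livers. It fell by 0.97 on the log2 scale (SE 0.16, adjusted p = 0.000896), with a step from KO:WT to KO:HET of 0.10 (SE 0.16, adjusted p = 0.959). The call of Abcg8 was lost when all 48 livers of the series entered the fit (adjusted p = 0.0692). The 2 genes lie head to head on opposite strands and overlap in the annotation.

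Their starts share 1 stretch of sequence, which is why it is shown. Below is the Abcg5 window (RefSeq, GRCm38.p6, chr17:84682962-84683261, minus strand), in which capitals mark the 209 bases it shares with the Abcg8 window on the plus strand (chr17:84682871-84683170). Neither window holds AGGTCA.
Abcg5: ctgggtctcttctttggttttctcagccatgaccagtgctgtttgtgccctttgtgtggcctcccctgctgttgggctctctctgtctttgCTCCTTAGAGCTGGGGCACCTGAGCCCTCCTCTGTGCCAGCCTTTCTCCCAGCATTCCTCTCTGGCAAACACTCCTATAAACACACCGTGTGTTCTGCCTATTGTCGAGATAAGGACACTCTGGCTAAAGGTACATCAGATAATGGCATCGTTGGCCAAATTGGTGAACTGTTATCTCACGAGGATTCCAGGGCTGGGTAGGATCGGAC

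**Figure D2:**
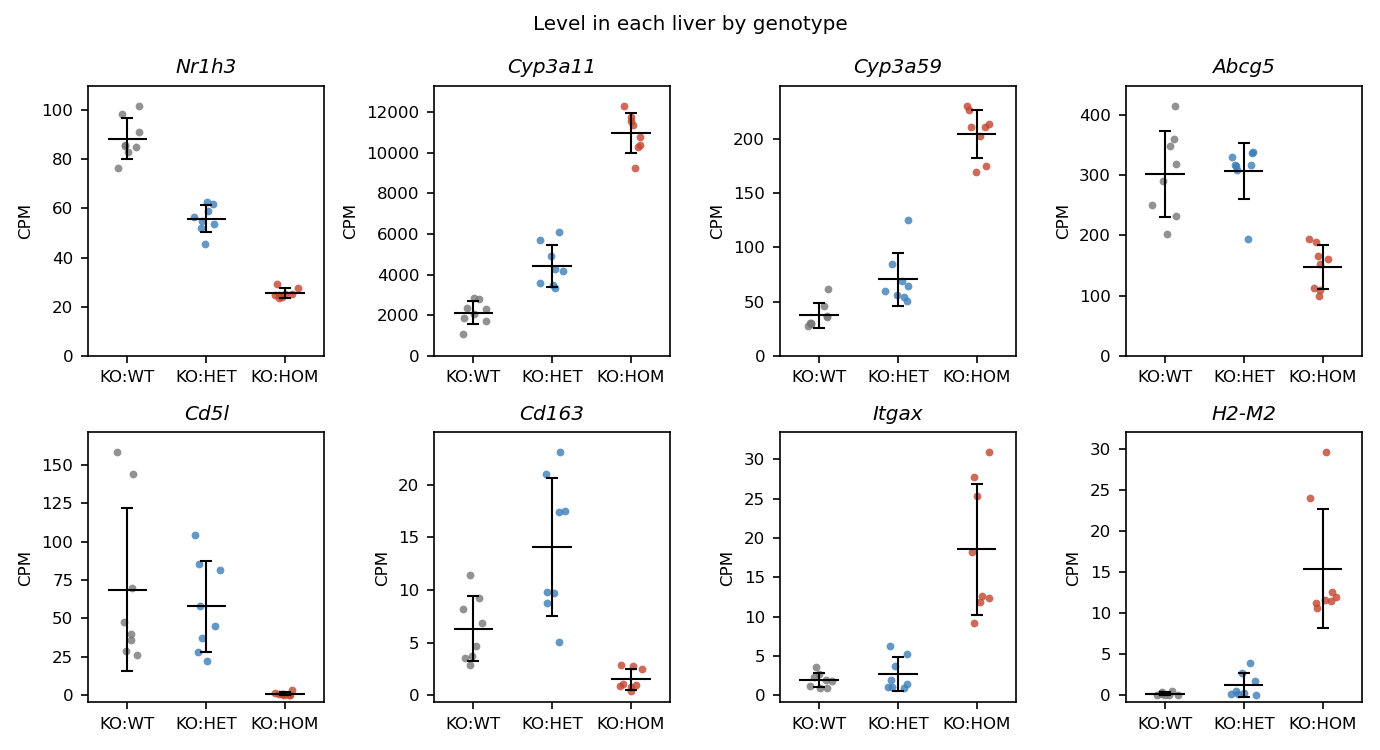
Each panel gives 1 gene, with the level in CPM on the vertical axis and the genotype on the horizontal axis; points are livers, the line is the mean and bars are SD over 8 livers. Nr1h3 and Cyp3a11 step between all 3 genotypes, whereas Abcg5, Cd5l and Itgax stand at similar levels in KO:WT and KO:HET livers and apart in KO:HOM livers.

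The other LXR target genes did not move one way. Of 20 tested on a list of textbook targets, 7 fell and 2 rose in KO:HOM livers (5 and 2 without both shallow libraries), and the list's median log2 fold change was −0.34. Over all genes tested 2.57% were lower and 6.41% higher, the shares against which the count of this list and of each list below stands. Besides Cd5l, Abcg5 and Abcg8, the genes that fell were Pltp, a phospholipid transfer protein, Cyp7a1, the rate-limiting enzyme of bile acid synthesis, Mlxipl, the carbohydrate-responsive transcription factor, and Apoc1, an apolipoprotein. Pltp ran from 16.7 to 57.1 CPM (median 32.4) in KO:HET livers and from 11.9 to 25 (median 14.6) in KO:HOM livers, a fall of 1.10 on the log2 scale (SE 0.23, edgeR adjusted p = 0.00455) between overlapping groups. The genes that rose were Abcg1 and Arl4c, both named after their values were seen. Abcg1, a cholesterol efflux transporter abundant in macrophages, went from a median of 7.91 to 22.4 CPM (log2 fold change 1.21, SE 0.26, adjusted p = 0.00487). Its paralogue Abca1 had a log2 fold change of 0.14 (SE 0.06, adjusted p = 0.141).

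Fatty acid synthesis genes leaned lower, and most did not pass the test. Of 23 tested on the list of lipogenesis and triacylglycerol synthesis, 4 fell and none rose, with a median log2 fold change of −0.68. At an unadjusted p under 0.05 there were 17, and DESeq2 called 6. The 4 were Slc25a1, the citrate carrier (−0.42, SE 0.11, edgeR adjusted p = 0.017), Fads1, a fatty acid desaturase (−1.09, SE 0.29, adjusted p = 0.0175), Mlxipl (−0.36, SE 0.11, adjusted p = 0.0415) and Lpin1, a phosphatidate phosphatase (−1.85, SE 0.59, adjusted p = 0.0479). The calls of Mlxipl and Lpin1 were lost in 17 and 14 of 25 alternative analyses, most of which left out 1 liver, with adjusted p up to 0.209 and 0.112. Without both shallow libraries none of the 23 was called by edgeR, although 13 had an unadjusted p under 0.05 and 21 had a fold change below 0 with a median of −0.62.

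The best-known members of that pathway were among those short of the threshold, and they are given here after their values were seen. Scd1, the stearoyl-CoA desaturase, ran from 11783 to 44139 CPM (median 18633) in KO:HET livers and from 2549 to 21956 (median 6770) in KO:HOM livers. Its log2 fold change was −1.42 (SE 0.46, edgeR adjusted p = 0.0513). For Fasn, the fatty acid synthase, it was −1.15 (SE 0.43, adjusted p = 0.0956), and for Srebf1 it was −0.47 (SE 0.18, adjusted p = 0.0917). Fasn ran from 190 to 1201 CPM among KO:HET livers alone. Gpat4, an acyltransferase of the same pathway that was not on the list, fell without overlap, from 214 to 323 CPM in KO:HET livers to 142 to 181 in KO:HOM livers (log2 fold change −0.75, SE 0.13, adjusted p = 0.00128).

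Cholesterol synthesis genes also fell where they were called. Of 25 tested, 7 fell and none rose, and the median was −0.49. At an unadjusted p under 0.05 there were 18, and DESeq2 called 11 lower. Without both shallow libraries 2 were called by edgeR, although 14 had an unadjusted p under 0.05. In that fit 24 had a fold change below 0, with a median of −0.47. Stard4, a sterol carrier protein, ran from 74.7 to 110 CPM (median 82.8) in KO:HET livers and from 15.6 to 71.8 (median 44.1) in KO:HOM livers. Tm7sf2, a sterol reductase, ran from 38 to 62.2 (median 48.8) and from 15 to 35.6 (median 26.2). Neither gene overlapped between the genotypes, and they fell by 0.97 (SE 0.18, edgeR adjusted p = 0.00212) and 0.93 (SE 0.16, adjusted p = 0.00136) on the log2 scale. Vps51 overlaps Tm7sf2 on the same strand in the annotation, and the effect of this on the count of Tm7sf2 was not tested. Cyp51 and Lss, enzymes around lanosterol, fell by 0.86 (SE 0.24, adjusted p = 0.0236) and 0.65 (SE 0.19, adjusted p = 0.0296). These last 2 calls were lost in 5 and 7 of the 25 alternatives. Fdps and Ebp, enzymes of the same pathway, were called as well.

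Bile acid genes gave 3 falls and no rise among 17 tested, with a median of −0.15, beside 2.57% lower over all genes. Cyp39a1, an oxysterol hydroxylase, had a median of 18.2 CPM in KO:HET livers and 4.92 in KO:HOM livers (log2 fold change −1.51, SE 0.29, edgeR adjusted p = 0.00237). Abcb11, the bile salt export pump, fell by 0.57 on the log2 scale (SE 0.12, adjusted p = 0.00331). Cyp7a1 ran from 126 to 301 CPM in KO:HET livers and from 80.2 to 158 in KO:HOM livers, a fall of 0.68 (SE 0.20, adjusted p = 0.0302) that was lost in 7 of the 25 alternatives. None of 18 genes of fatty acid oxidation under PPARα was called by edgeR or by DESeq2, 2 had an unadjusted p under 0.05, and their median was −0.11.

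Of the other falls without overlap, Srd5a1, a steroid 5-alpha-reductase, had among the smallest p-values. It ran from 70.4 to 92.5 CPM (median 77.3) in KO:HET livers and from 24.6 to 60.5 (median 32.8) in KO:HOM livers (log2 fold change −1.13, SE 0.14, edgeR adjusted p = 3.5e-05). Adam11, a member of the ADAM family, had medians of 56.2, 52.8 and 9.54 CPM in KO:WT, KO:HET and KO:HOM livers, and fell by 2.25 (SE 0.23, adjusted p = 1.88e-06). Car14, a carbonic anhydrase, fell by 1.21 (SE 0.20, adjusted p = 0.000905), and Sgk2, a kinase, by 0.74 (SE 0.16, adjusted p = 0.00592).

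Among falls without overlap and with a mean log2 CPM above 1, the largest were in Cd5l and Cd163, both Kupffer cell genes. Cd5l, a secreted protein of tissue macrophages (ENSMUSG00000015854, chromosome 3, 87265182 to 87278380), ran from 26.2 to 159 CPM (median 43.6) in KO:WT livers, from 22.5 to 104.5 (median 51.6) in KO:HET livers and from 0.118 to 3.24 (median 0.495) in KO:HOM livers. KO:HET livers lay within the range of KO:WT livers apart from their lowest, and every KO:HOM liver lay below all of both. The fall was 86.0-fold (log2 fold change −6.43, SE 0.56, edgeR adjusted p = 1.43e-07). The highest KO:HOM value belongs to the shallow library of animal 17, and the next was 1.11.

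Cd163, the haemoglobin scavenger receptor, ran from 5.10 to 23.1 CPM (median 13.7) in KO:HET livers and from 0.409 to 2.82 (median 1.02) in KO:HOM livers, and fell 9.61-fold (log2 fold change −3.26, SE 0.39, edgeR adjusted p = 2.84e-05). Timd4, a receptor for apoptotic cells, ran from 1.72 to 7.93 (median 3.72) and from 0.350 to 1.62 (median 0.680), and fell by 2.59 (SE 0.37, adjusted p = 0.000257). Neither gene overlapped between the genotypes. Folr2, a folate receptor, fell by 1.98 (SE 0.42, adjusted p = 0.00476), a call that was lost with counts taken without regard to strand (adjusted p = 0.125).

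The Kupffer cell list as a whole was mixed. Of 12 markers tested, 5 fell (Cd5l, Cd163, Timd4, Folr2 and Clec4f) and 1 rose (Spic, the transcription factor of red pulp macrophages, 1.58, SE 0.46, edgeR adjusted p = 0.0312), and the median was −1.01. Without both shallow libraries 5 fell and none rose. The pan-macrophage marker Adgre1, given after its values were seen, had a log2 fold change of 0.45 (SE 0.30, adjusted p = 0.391). The summed level of the list ran from 362.5 to 862.3 CPM in KO:HET livers and from 362.6 to 565.2 in KO:HOM livers, and no member was at 0 in all livers. In whole liver, fewer cells of a type and less RNA per cell cannot be told apart.

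A direct test of the size of the 2 steps was made for every gene. It takes the log2 change from KO:HET to KO:HOM and subtracts the log2 change from KO:WT to KO:HET, so that 0 means equal steps and a negative value means that the loss of the second copy lowered the gene more, or raised it less, than the loss of the first. The test called 4 genes, 0.028% of those tested, all negative, beside 1005 at an unadjusted p under 0.05 and 12 called by DESeq2, 11 of them negative. With a mean CPM of at least 1 edgeR called 2, Cd5l and Cd163, and with all 48 livers in the fit it called 0, with 778 at an unadjusted p under 0.05. Cd5l led with a difference of −6.18 (SE 0.75, edgeR adjusted p = 0.000201), its step from KO:WT to KO:HET being −0.24 (SE 0.38). Cd163 followed with −4.42 (SE 0.59, adjusted p = 0.000545), and its first step was 1.16 (SE 0.34, adjusted p = 0.611), above 0 but not called. The other 2 were Adam11 (−1.99, SE 0.36, adjusted p = 0.0387) and Kcnj16, an inward rectifier potassium channel (−5.03, SE 0.92, adjusted p = 0.0387).

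Kcnj16 rests on few reads. Its level ran from 0.194 to 1.78 CPM in KO:HET livers, and in KO:HOM livers 3 reads fell in 1 liver and the other 7 were at 0, against 109 reads over the KO:HET livers. The ratio of reads was 0.0274 (95% exact interval 0.00557 to 0.0823, counting error only). Without both shallow libraries Cd5l, Cd163 and Kcnj16 remained called, Timd4 was called as well, and Adam11 was not.

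By edgeR on the log scale no gene was called with a larger rise in the second step than in the first. On linear CPM, tested with limma, Cyp3a59 was called in that direction and the fall of Saraf and Cd163 in the other. Fabp5, a fatty acid binding protein of macrophages and skin, came closest by p among well measured genes, with a median of 13.9 CPM in KO:WT livers, 6.41 in KO:HET livers and 13.5 in KO:HOM livers. Its difference between steps was 3.08 (SE 0.71, edgeR adjusted p = 0.224), and DESeq2 called it. Nr1h3 had a difference of −0.46 (SE 0.12, adjusted p = 0.38) and Cyp3a11 one of 0.24 (SE 0.27, adjusted p = 0.877), so neither was called. Without adjustment the edgeR p was 0.000531 for Nr1h3, the targeted gene, and 0.375 for Cyp3a11. The test called few genes, so most of the 1284 genes cannot be assigned to either step by these 24 livers.

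Genes of antigen presentation on MHC class II, the molecules that show peptides to helper T cells, rose. Of 11 tested, 10 rose and none fell, with and without the shallow libraries, and the median log2 fold change was 2.19. The exception was H2-Ob, which dampens peptide loading (0.62, SE 0.35, edgeR adjusted p = 0.292). Cd74, the invariant chain, ran from 20.1 to 62.4 CPM (median 39.0) in KO:WT livers, from 41.0 to 308 (median 75.5) in KO:HET livers and from 193 to 1318 (median 566) in KO:HOM livers. The KO:HET and KO:HOM groups overlapped, and the rise was 6.10-fold (log2 fold change 2.61, SE 0.42, adjusted p = 0.000854). H2-DMb1 and H2-DMa, the chains of the peptide-loading factor, rose by 2.22 (SE 0.35, adjusted p = 0.000667) and 2.26 (SE 0.36, adjusted p = 0.000742), and H2-Ab1, a class II chain, by 2.19 (SE 0.38, adjusted p = 0.00122). For KO:HET against KO:WT the median of the list was 1.29 with no member called by edgeR, and for KO:HOM against KO:WT it was 3.52 with 11 called.

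Among rises without overlap and with a mean log2 CPM above 1, the largest was in H2-M2, a non-classical MHC class I gene (ENSMUSG00000016283, chromosome 17, 37791742 to 37794472). It ran from 0.066 to 3.91 CPM (median 0.393) in KO:HET livers and from 10.6 to 29.7 (median 11.8) in KO:HOM livers, a 12.1-fold rise (log2 fold change 3.59, SE 0.49, edgeR adjusted p = 0.000184). In KO:WT livers it did not exceed 0.489. The step of H2-M2 from KO:WT to KO:HET was 2.775 on the log2 scale (SE 0.71, edgeR adjusted p = 0.378, unadjusted p = 0.000594). Its difference between steps was 0.82 (SE 1.16, adjusted p = 0.909), so neither was called. Itgax, the integrin CD11c (ENSMUSG00000030789, chromosome 7, 127728668 to 127749829), ran from 0.968 to 6.29 CPM (median 1.66) and from 9.18 to 30.9 (median 15.4), and rose 6.64-fold (log2 fold change 2.73, SE 0.38, adjusted p = 0.00022). Its level in KO:WT livers, from 0.911 to 3.51, overlapped that of KO:HET livers.

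Beside H2-M2, Itgax and Cyp3a59, the 12 largest rises within the same limits held 9 genes. Hvcn1, the proton channel of phagocytes, rose by 2.18 (SE 0.31, edgeR adjusted p = 0.000275), Clec7a, the β-glucan receptor, by 2.12 (SE 0.45, adjusted p = 0.00416) and Ctss, a lysosomal protease that trims the invariant chain, by 1.88 (SE 0.34, adjusted p = 0.0019). Pilra, Sirpa and Cd33, receptors on the cell surface, rose by 1.70 (SE 0.26, adjusted p = 0.000492), 1.69 (SE 0.32, adjusted p = 0.00215) and 1.63 (SE 0.34, adjusted p = 0.00353). Syk, a kinase that signals below activating immune receptors, ran from 3.37 to 12.4 CPM in KO:HET livers and from 13.1 to 40.5 in KO:HOM livers. Myof, a membrane repair protein, and Cyfip2, a regulator of actin, completed the group with 2.06 (SE 0.31) and 1.69 (SE 0.28).

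Many innate sensing genes rose. Of 20 Toll-like receptor and inflammasome genes tested, 13 rose and none fell, with a median of 1.28, and 10 rose without both shallow libraries. Casp1 and Casp4, the caspases of the inflammasomes, rose by 1.36 (SE 0.25, edgeR adjusted p = 0.00212) and 1.62 (SE 0.32, adjusted p = 0.00253). Pycard, an inflammasome adaptor, rose by 1.71 (SE 0.36, adjusted p = 0.00376), and Tlr2, a receptor for bacterial lipoproteins, went from a median of 2.17 to 11.4 CPM. Il18 lay between 11.1 and 18.3 CPM in KO:HET livers and between 8.70 and 15.8 in KO:HOM livers (log2 fold change −0.01, SE 0.13, adjusted p = 0.984; named after its values were seen).

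Interferon-stimulated genes gave 12 rises and no fall among 20, with a median of 1.11, and 12 without both shallow libraries. Ubd, a ubiquitin-like modifier, went from a median of 4.37 CPM to 89.6 (log2 fold change 3.14, SE 0.52, edgeR adjusted p = 0.001), with 2.03 in KO:WT livers. Gbp2, a guanylate-binding GTPase, rose by 2.26 (SE 0.46, adjusted p = 0.00312), and Psmb8, an immunoproteasome subunit, by 1.05 (SE 0.19, adjusted p = 0.00167). The 8 members that were not called were Irf7, Isg15, Ifit1, Ifit3, Rsad2, Usp18, Oas1a and Mx1, named after their values were seen.

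Chemokines and their receptors gave 12 rises and 1 fall among 21 tested, with a median of 1.43, and 9 rises and no fall without both shallow libraries. Cxcl16, a membrane-bound chemokine, had medians of 7.02 and 15.9 CPM (log2 fold change 1.23, SE 0.26, edgeR adjusted p = 0.00396). Ccr1, a receptor for several chemokines of inflammation, rose by 2.37 (SE 0.51, adjusted p = 0.00501), and Ccl5 itself by 2.60 (SE 0.59, adjusted p = 0.00668). Cxcl2, a neutrophil attractant, rose by 1.90 (SE 0.45, adjusted p = 0.00893). The fall was in Cxcl13, the B cell attractant, from a median of 1.53 CPM to 0.154 (log2 fold change −1.99, SE 0.62, adjusted p = 0.0416).

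All 7 SLAM family receptors tested, surface molecules of leukocytes, rose (6 without both shallow libraries), with a median of 1.67. Slamf8 led with medians of 0.598 and 8.76 CPM (log2 fold change 2.86, SE 0.51, edgeR adjusted p = 0.00168), followed by Slamf9 (1.67, SE 0.31, adjusted p = 0.00221), Slamf7 (2.40, SE 0.50, adjusted p = 0.00352) and Ly9 (1.84, SE 0.43, adjusted p = 0.0078). Of 16 lysosomal and lipid-handling genes of macrophages, 3 rose, namely Lyz2, lysozyme (2.14, SE 0.46, adjusted p = 0.00514), Msr1, a scavenger receptor (0.79, SE 0.20, adjusted p = 0.0119), and Soat1, which esterifies cholesterol (1.15, SE 0.31, adjusted p = 0.021). The call of Soat1 was lost without KO:HOM animal 8 and with all 48 livers in the fit (adjusted p up to 0.0765). The median of the lysosomal list was 0.25, DESeq2 called 7 higher, 10 had an unadjusted p under 0.05, and 4 rose without both shallow libraries. Of 19 genes of the extracellular matrix and fibrosis, 3 rose and none fell, beside 6.41% higher over all genes, with 18 above 0, 8 at an unadjusted p under 0.05 and a median of 0.55: Tgfb1 (0.99, SE 0.20, adjusted p = 0.00301), Mmp14 (0.67, SE 0.16, adjusted p = 0.00795) and Mmp13 (1.85, SE 0.48, adjusted p = 0.0154), a growth factor and a pair of matrix proteases. The calls of Mmp14 and Mmp13 were lost with all 48 livers in the fit (edgeR adjusted p = 0.148 and 0.0578).

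**Figure D3:**
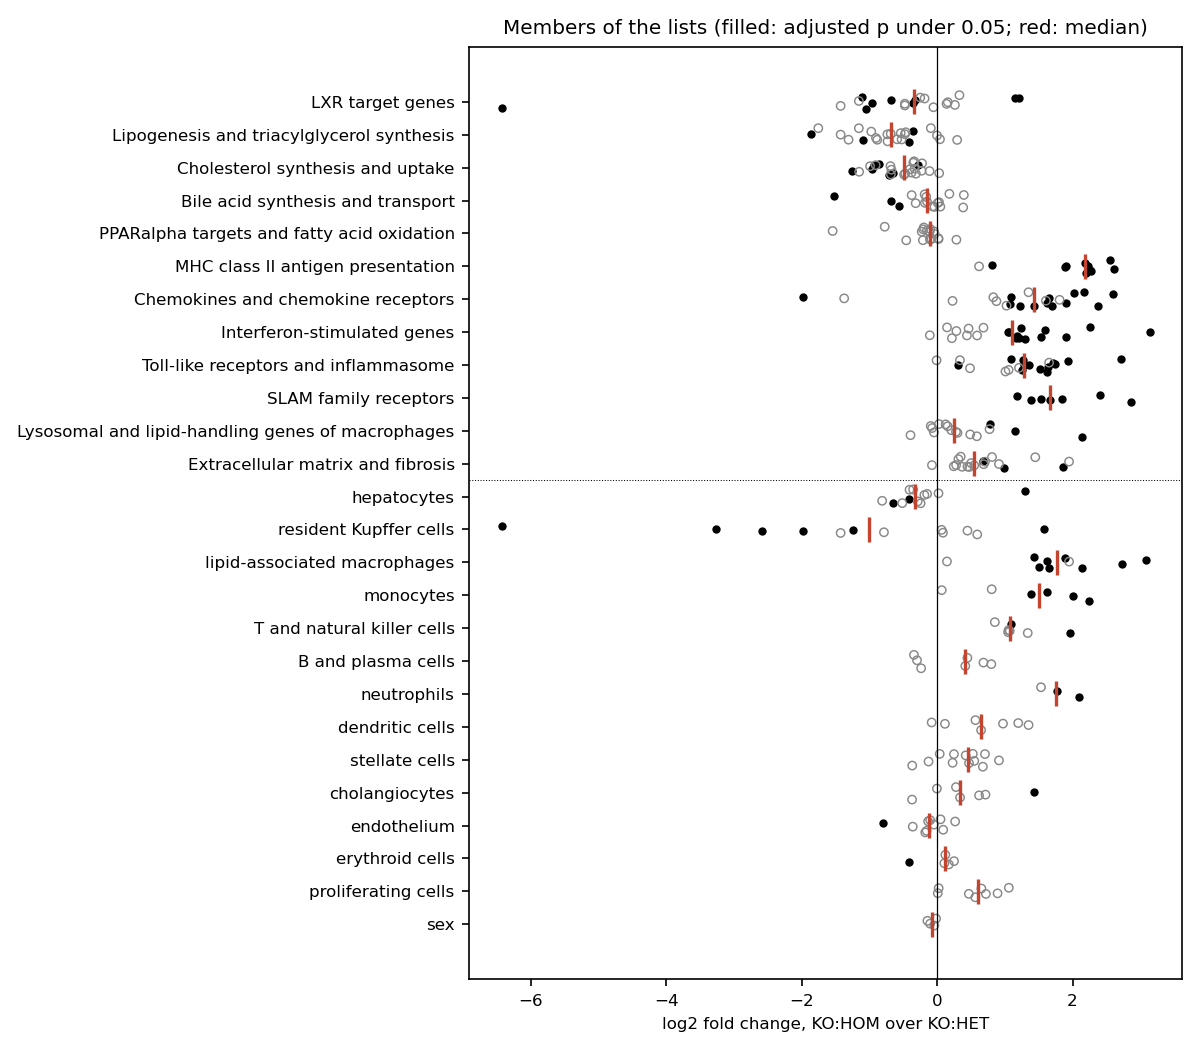
Each row is 1 list and each point 1 member, with the log2 fold change of KO:HOM over KO:HET on the horizontal axis; filled points have an edgeR adjusted p under 0.05, the red mark is the median of the list, and the dotted line parts pathway lists from cell markers. MHC class II (median 2.19) and lipid-associated macrophages (1.77) lie to the right, while lipogenesis (−0.68) and resident Kupffer cells (−1.01) lie to the left.

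Markers of several leukocytes moved with these groups. Of 10 markers of lipid-associated macrophages, 8 rose and none fell, with a median of 1.77 (7 rose without both shallow libraries), and the summed level ran from 40.9 to 168.5 CPM in KO:HET livers and from 115.7 to 406.5 in KO:HOM livers. Beside Itgax the list included Cd63, a tetraspanin (1.65, SE 0.34, edgeR adjusted p = 0.00331), Lgals3, a galectin (2.15, SE 0.44, adjusted p = 0.00336), and Spp1, osteopontin (1.43, SE 0.35, adjusted p = 0.0107). The calls of Cd63 and Spp1 were lost with all 48 livers in the fit (edgeR adjusted p = 0.126 and 0.193). Of 6 monocyte markers 4 rose, with a median of 1.5, Ly6c2 going from a median of 0.607 to 4.31 CPM and Plac8 from 4.02 to 16.5. The summed level of the monocyte list, most of it Fn1, ran from 1069 to 1514 CPM and from 1130 to 1644.

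Among lymphocytes, 2 of 7 T and natural killer cell markers rose, Lck, a kinase of the T cell receptor (1.09, SE 0.32, edgeR adjusted p = 0.0309), and Cd8a (1.97, SE 0.60, adjusted p = 0.0384). The median of the list was 1.07, and that of its first step, KO:HET against KO:WT, was 1.19 with no member called by edgeR. Neither Lck nor Cd8a was called without both shallow libraries, and each was lost in 12 of the 25 alternatives. The summed level of the list ran from 5.15 to 20.9 CPM in KO:HET livers and from 8.70 to 40.2 in KO:HOM livers. None of 7 B and plasma cell markers was called by edgeR, none had an unadjusted p under 0.05, DESeq2 called 1, and the median was 0.42. Of 3 neutrophil markers 2 rose, Csf3r, the receptor for granulocyte colony-stimulating factor (1.76, SE 0.38, adjusted p = 0.00473), and S100a9, a calcium-binding protein (2.09, SE 0.57, adjusted p = 0.0213). The call of S100a9 was lost without KO:HOM animal 26 and with all 48 livers in the fit (adjusted p up to 0.125). The defining neutrophil marker Ly6g was at 0 in every KO:WT and KO:HET liver and at most 0.0626 CPM in a KO:HOM liver. No member of these lists was at 0 in all 24 livers, and the part of leukocyte number in the rises above was not tested.

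Of 12 hepatocyte markers 2 fell and 1, Cyp3a11, rose, with a median of −0.32. At an unadjusted p under 0.05 there were 10, and DESeq2 called 5 lower and 1 higher. Alb, serum albumin, fell by 0.41 on the log2 scale (SE 0.11, edgeR adjusted p = 0.0158) and Cps1, a urea cycle enzyme, by 0.65 (SE 0.16, adjusted p = 0.0131). The summed level of the list ran from 81450 to 105100 CPM in KO:HET livers and from 72100 to 96000 in KO:HOM livers, so hepatocyte transcripts were abundant in every liver. For 12 stellate cell, 7 dendritic cell and 8 proliferation markers edgeR called none, with medians of 0.45, 0.65 and 0.61. Their counts at an unadjusted p under 0.05 were 4, 4 and 1, and DESeq2 called 0, 2 and 0. On the stellate cell and proliferation lists KO:HET animal 9 stood above every KO:HOM liver. Its level of Lum, a stellate cell marker, was 21.6 CPM, against 4.52 to 6.55 in the other KO:HET livers and 9.17 to 17.1 in KO:HOM livers. Lum, Dcn, Pdgfrb, Col1a2, Mki67 and Ccna2 were each called in 1 of the 25 alternatives, and Top2a in none. The counts of these lists without animal 9 were not tested. Of 10 endothelial markers only Cdh5, the endothelial cadherin, was called, a fall of 0.79 (SE 0.16, adjusted p = 0.00281), and of 7 cholangiocyte markers only Spp1, of 5 erythroid markers only Alas2 (−0.42, SE 0.12, adjusted p = 0.0275), a call lost in 6 of the 25 alternatives. Of 4 Y-linked genes none was called by edgeR or DESeq2, 1 had an unadjusted p under 0.05, and the median was −0.07.

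Livers of 1 genotype differed among themselves in the same lists. On the MHC class II list the KO:HET animals 4, 6 and 9 were the 3 highest, and the same 3 were highest for chemokines, interferon-stimulated genes, Toll-like receptors, SLAM receptors and lipid-associated macrophages. KO:HET and KO:HOM livers overlapped on each of these lists, with 6 of 8 KO:HOM livers above every KO:HET liver for MHC class II and 7 of 8 for SLAM receptors. On the LXR target list 7 of 8 KO:HOM livers lay below every KO:HET liver, and on the Kupffer cell list 6 of 8 did. Cd5l, with a log2 fold change of −6.43, is on both lists, and each list mean weighs its members equally. How far the livers part on these lists without Cd5l was not tested.

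**Figure D4:**
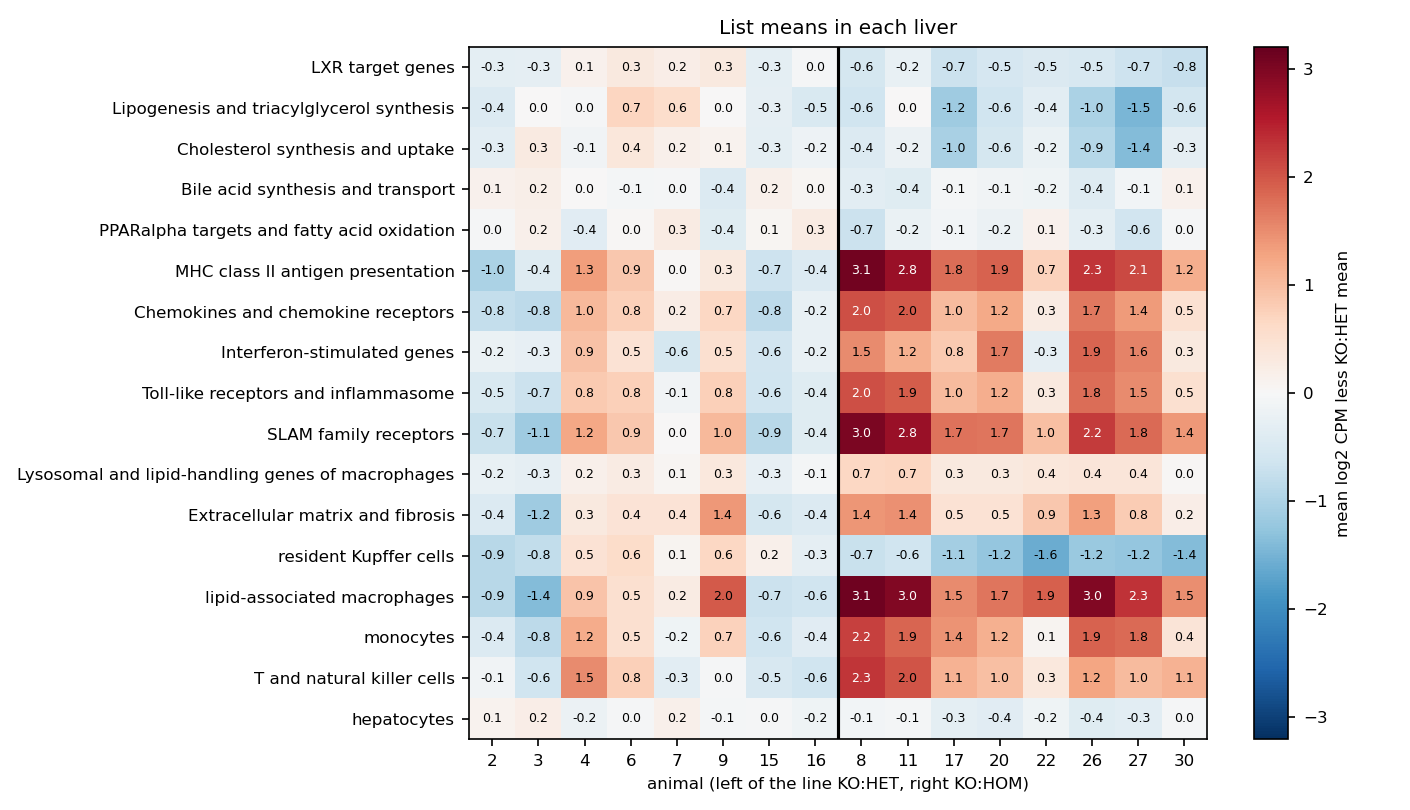
Rows are lists and columns are livers by animal number, KO:HET left of the line and KO:HOM right; colour and figures give the mean log2 CPM of the list in that liver less the KO:HET mean. KO:HOM livers of animals 8, 11 and 26 stand highest on the MHC class II list, and KO:HET animals 4, 6 and 9 stand above the other KO:HET livers.

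For KO:HET against KO:WT neither edgeR nor DESeq2 called a member of the 12 pathway lists. Members could still lie at a small p without adjustment. For the 4 named MHC class II genes the unadjusted edgeR p of this step was 0.000607 (H2-Ab1), 0.0011 (Cd74), 0.00227 (H2-DMb1) and 0.004 (H2-DMa). Their log2 fold changes were 1.47, 1.52, 1.29 and 1.23. The medians of that first step, beside those of the second, were 0.07 and −0.34 for LXR targets, −0.16 and −0.68 for lipogenesis, −0.28 and −0.49 for cholesterol synthesis, 0.49 and 1.43 for chemokines, 0.33 and 1.11 for interferon-stimulated genes and 0.43 and 1.28 for Toll-like receptors and inflammasomes. Both steps share the KO:HET livers, so a high or low KO:HET value enters both.

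Genes near the deleted locus were counted separately, since the line was made on a mixed background and the chromosome around Nr1h3 is inherited with it. Within 10 megabases of Nr1h3 on chromosome 2, 77 genes were tested and 4 were called, 5.19%, against 9% of all other genes. Besides Nr1h3 they were Spi1, the transcription factor PU.1 of myeloid cells (1.26, SE 0.27, edgeR adjusted p = 0.00479), Gm10804 (1.84, SE 0.52, adjusted p = 0.0245) and Pacsin3 (−0.21, SE 0.06, adjusted p = 0.0424). The call of Pacsin3 was lost in 16 of the 25 alternatives, and that of Gm10804 without both shallow libraries and with all 48 livers in the fit (adjusted p up to 0.0641).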

How the data were processed

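RNA-seq of whole liver was used for 8 KO:WT, 8 KO:HET and 8 KO:HOM mice, grouped by the genotype in the labels. The authors aligned reads with STAR 2.5.0a to GRCm39 and deposited raw counts per gene for each liver, with no normalization, in unstranded and both stranded forms. The stranded column that matches the library type was used. Each file opens with 4 summary lines that name no gene, holding 24.0 to 29.1% of the reads of the 16 livers compared, and these were left out. Symbols and positions came from GENCODE vM39 and covered 54749 of 55416 gene identifiers (98.8%).

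Counts were fitted over the 24 livers by edgeR's quasi-likelihood method (version 4.0.16 in R 4.3.3) after TMM scaling and filterByExpr, without covariates. Log2 CPM used a prior count of 2. Benjamini-Hochberg adjustment ran over the 14296 genes tested, 1284 of which passed 0.05. The same model was contrasted for KO:HET against KO:WT, KO:HOM against KO:WT and the difference between the steps. The scripts were tested on simulated data. The animals are separate mice, so p-values measure the spread between animals.

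Genes named are Nr1h3, the 12 largest rises and falls among called genes without overlap and with a mean log2 CPM above 1, up to 4 members of each of 26 gene lists by smallest p, 5 genes per direction for the difference between steps, and up to 8 called genes within 10 megabases of Nr1h3. The lists are hand-written, and the comparison, the members and the lists were chosen with earlier results of these data known. Genes outside the rule, including members spelled out beside a count, were named after their values were seen.

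Alternatives were DESeq2 1.42.0, its size factors, upper-quartile scaling, other count filters, unstranded counts, fits on 16 or 48 livers, stricter thresholds, limma 3.58.1 on linear CPM, other windows around Nr1h3, each KO:HET or KO:HOM liver left out, and both shallow libraries left out. Counts of list members without the shallow libraries, and list medians from DESeq2, were added after seeing the data. Promoters were taken from RefSeq tables (GRCm38.p6). The 24 livers of the knock-in line were used only in the fit on 48. Some members of the lists are not reported here.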

Additional observations from a re-analysis of the deposited data

Results flagged for a closer look

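Within the KO:HET and the KO:HOM group, the level of 34 genes, the means of 26 lists and the reads per library were searched for a liver far from the other 7, by the gap to its neighbour over the range of the group and the critical value of Dixon's test at 8 livers. Of 122 groups of values 9 passed, and chance alone passes about 1 in 20. The shallow libraries were known before the search, and Kcnj16 had 7 of 8 KO:HOM livers at 0, so their flags were fixed beforehand. The count of 9 therefore cannot be read against that rate. Reads on genes stood apart at 5332897 in KO:HET animal 3 (next 15670785) and at 5376226 in KO:HOM animal 17 (next 15231842). KO:HOM animal 17 also stood apart for Cd5l, at 3.24 CPM where the next was 1.11. Among KO:HET livers, animal 15 was low for Abcg5 (194 CPM, next 308) and for Abcg8 (188 CPM, next 270), neighbouring genes that share a promoter. Animal 16 was high for Cyp3a59 at 125 CPM (next 84.8), and animal 6 low for Rbm3, a cold-inducible RNA-binding protein, at 24.4 CPM (next 31.6). The bile acid list stood at −0.45 in KO:HET animal 9, in mean log2 CPM less the KO:HET mean, where the next was −0.07. Kcnj16 was at 0.174 CPM in KO:HOM animal 30 and at 0 in the other KO:HOM livers. No cause of these values was tested.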

How the results depend on the processing

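The 1284 calls between KO:HOM and KO:HET livers became 1620 with DESeq2, and stayed within 1.5 times with other scalings, count filters, unstranded counts or only the 16 livers in the fit. With all 48 livers in the fit 737 were called, 560 higher and 177 lower. At an adjusted p under 0.01 there were 524 (430 and 94), and with an absolute log2 fold change of at least 1 there were 583 (532 and 51). Without both shallow libraries 187 were lower. Leaving out 1 liver gave 928 to 1769 calls, 664 to 1218 higher and 222 to 551 lower. The fit on 48 livers ended the calls of Abcg8, Cxcl16, Ccr1, Casp4, Lyz2, Mmp14, Mmp13, Cps1, Alb, Cd63, Spp1 and others. The lower calls dropped by more than 1.5 times without KO:HET animals 2 (226), 3 (222) or 7 (227) or KO:HOM animals 26 (223) or 27 (244), and the 551 came without KO:HET animal 9. The cause was not tested. For the difference between steps, 12 genes were called with DESeq2, 2 with a mean CPM of at least 1, and 0 by edgeR with all 48 livers, where 778 had an unadjusted p under 0.05. Of KO:HET against KO:WT, DESeq2 called 11. Of 89 called genes followed through the alternatives, 59 stayed called in each of up to 25 that tested them (23 for Kcnj16), 30 were lost in some and 0 changed direction. Among followed genes that were not called, Flt3 passed in 6 alternatives, Tfec in 5, Timp1 and Sox9 in 4 each, and others in fewer or none. Most genes named after their values were seen, such as Abcg1 and Nos2, were not among those followed. No paired analysis was possible because the replicate numbers are accession order only and the labels pair no animals across genotypes.

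Depth limits what is said of genes near 1 CPM, above all in the 2 shallow libraries. Sex and cohort are not in the labels, so neither was a covariate.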

Other observations

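Some gene families, a few of whose members are also on the lists, were looked at after their values were seen, and their counts stand beside 6.41% higher and 2.57% lower over all genes tested. Of 11 guanylate-binding protein genes tested, which encode interferon-inducible GTPases, 10 were higher in KO:HOM livers, with a median log2 fold change of 1.74. Gbp5 went from a median of 2.65 CPM to 23.3 (log2 fold change 2.38, SE 0.43, edgeR adjusted p = 0.00202). Of 21 C-type lectin receptor genes 10 were higher and 1, Clec4f, lower. Clec4e, a receptor for mycobacterial glycolipid, ran from 0 to 3.78 CPM in KO:HET livers and from 0.350 to 35.2 in KO:HOM livers, and Clec4d, its neighbour, from 0 to 0.732 and from 0.234 to 9.41. Of 45 proteasome subunit genes 6 were higher and 1 lower with a median of −0.03, and the 6 were the inducible subunits Psmb8, Psmb9 and Psmb10 and the activator genes Psme1, Psme2 and Psme2b. Psme1 rose by 0.59 (SE 0.10, adjusted p = 0.00157).

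Large rises at low level included the following genes, chosen after their values were seen. Nos2, the inducible nitric oxide synthase, had a median of 0.0334 CPM in KO:HET livers and 6.40 in KO:HOM livers, where it ranged from 0.175 to 33.1 (log2 fold change 4.57, SE 0.78, edgeR adjusted p = 0.00122). Acod1, which makes itaconate, had medians of 0.425 and 8.60 CPM (3.43, SE 0.72, adjusted p = 0.00392), and Ptgs2, cyclooxygenase-2, of 0.066 and 2.61 (3.57, SE 0.62, adjusted p = 0.00147). Large falls at low level included Slc2a4, the insulin-responsive glucose transporter, from 2.10 to 0.121 CPM (−3.90, SE 0.61, adjusted p = 0.000667), and Kcna2, a potassium channel, from 3.68 to 0.237 (−3.58, SE 0.51, adjusted p = 0.000257).

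The cytochrome P450 calls went both ways. Beside Cyp3a11 and Cyp3a59, Cyp2a5, a coumarin hydroxylase, rose by 0.85 (SE 0.19, edgeR adjusted p = 0.00541) and Cyp3a25 by 0.41 (SE 0.10, adjusted p = 0.0131), while Cyp2c70, which makes muricholic acids, fell by 1.12 on the log2 scale (SE 0.23, adjusted p = 0.00382). Slco1a4, an uptake transporter of organic anions, rose by 0.81 (SE 0.15, adjusted p = 0.00236), and its step from KO:WT to KO:HET was 0.76 (SE 0.16, adjusted p = 0.0936). Rxrb, a retinoid X receptor gene, ran from 29.6 to 36.2 CPM in KO:HET livers and from 24.8 to 29.4 in KO:HOM livers, a fall of 0.26 without overlap (SE 0.05, adjusted p = 0.00252).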
